A study of Mus musculus with 6 samples.

Results

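The genes described here are the receptor chains for type I interferon (Ifnar1 and Ifnar2) and for interferon-γ (Ifngr1 and Ifngr2), the Janus kinases Jak1, Jak2 and Tyk2, and the feedback inhibitors Socs1, Socs3 and Cish. They were taken by symbol from a table of read counts over 3′ UTR regions and make up 10 of the 55254 genes listed there, of which 18430 had at least 1 count. Each of the 10 genes was represented by the transcript whose mean count was highest, which is named below, and genes outside the 10 by the same rule, apart from Hnrnpd. The libraries come from bone marrow-derived macrophages (BMDMs) of C57BL/6J mice aged 6-8 weeks, grown for 10 days in medium conditioned by L929 cells and then exposed to lipopolysaccharide (LPS) at 100 ng/ml for 4 hours. The 3 control cultures carried the hnRNPD fl/fl genotype, with loxP sites and no Cre. The 3 M-Δx3,4 cultures were LysCre+ hnRNPD fl/fl, in which Cre is driven from the lysozyme M gene of myeloid cells and removes exons 3 and 4 of hnRNPD, the gene of the AUF1 RNA-binding proteins. Both groups received LPS, so no value below is from a resting macrophage. The labels do not say whether the cultures came from separate mice, so each p-value measures the spread between these cultures only.

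Interferons bind paired receptor chains whose cytoplasmic tails hold JAKs. Type I interferon receptors use Jak1 and Tyk2, and the interferon-γ receptor uses Jak1 and Jak2. The kinases phosphorylate STAT proteins, which enter the nucleus and induce, among many other genes, the SOCS family. Socs1 and Socs3 block JAK activity directly, while Cish competes with STATs for phosphorylated receptors, and all 3 can hand their partners to an E3 ubiquitin ligase through the SOCS box. In macrophages, LPS engages this circuit through the interferon-β that the cells release and through interleukins 6 and 10. AUF1 proteins bind AU-rich elements in 3′ UTRs, which is why the 3′ UTRs of the genes are shown first.

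In GENCODE vM21 transcripts the pentamer ATTTA, the core of AU-rich elements, occurred 6 times in the 3′ UTR of Ifngr2 (2618 bases), 4 times each in those of Jak1 (1128 bases) and Socs3 (1474 bases), 3 times in Cish (1087 bases), 2 times in Jak2 (1232 bases) and once each in Tyk2 and Ifnar1. It was missing from the 3′ UTRs of Ifnar2, Ifngr1 and Socs1. Only the sense strand was searched, and overlapping matches were counted. Over 1 protein-coding transcript for each of 9948 tested genes, 67.7% of 3′ UTRs held the pentamer. Among 3′ UTRs within 20% of the length of that of Socs1, 91.2% held it, as did 77.8% of those of the length of Ifnar2 and 52.6% of those of the length of Ifngr1. At least as many pentamers as in Socs3 were found in 28.4% of 3′ UTRs of like length. For Jak1 this share was 18.6%, for Cish 29.6% and for Ifngr2 32.6%. The stricter nonamer TTATTTATT, which contains the pentamer, was present in Cish alone of the 10, at 2 overlapping positions, and in 6.47% of 3′ UTRs of the length of Cish. The following windows of 30 bases are those with the most pentamers in the 3′ UTR of each inhibitor that has one, and of Jak1 and Ifngr2 for comparison. Capitals mark ATTTA and TTATTTATT, T stands for U, and each window is written 5′ to 3′ on the strand of its gene.
Cish: ttatacagtATTTATTTATTTATTctcctt
Socs3: ttgcacatatATTTAtATTTAtactcagaa
Jak1: gaacaacATTTAaattcccATTTAtcaaat
Ifngr2: tttgacactATTTAacATTTAggaaagggt
On mm10 the windows lie at chr9:107301376-107301405 (plus strand) for Cish, chr11:117966136-117966165 (minus strand) for Socs3, chr4:101153458-101153487 (minus strand) for Jak1 and chr16:91564246-91564275 (plus strand) for Ifngr2. All 4 are inside the region over which the reads of that gene were counted. A match is a description of the letters and no evidence that AUF1 binds there.

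Feedback inhibitors are induced by STATs, so the promoters were searched for the STAT element TTCNNNGAA, which reads the same on both strands. RefSeq promoter windows (GRCm38.p6, from 250 bases before to 50 after the start) were given for all 10 genes, 1 for each. The element was found in the windows of Cish, Socs3, Ifnar1 and Ifnar2, and 8.3% of 32851 windows held at least 1. Cish held 2, and 0.457% of windows held 2 or more. The matches of Cish and Socs3 are shown in capitals, with the bases around them.
Cish: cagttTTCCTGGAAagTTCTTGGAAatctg
Socs3: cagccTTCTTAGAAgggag
They lie at chr9:107296654-107296683 (plus strand) and chr11:117969507-117969525 (minus strand). The element of Socs3 starts 154 bases before the annotated start. The first of the 2 elements of Cish begins at the annotated start, so both lie at or after it.

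The p37 transcript of the hnRNPD gene (Hnrnpd, ENSMUST00000072750), which is not the transcript of that gene with the most counts, fell from 177.8, 104.2 and 69.6 normalized counts across controls to 52.8, 12.6 and 16.0 across M-Δx3,4 cultures, with no overlap between the groups and a log2 fold change of -2.11 (SE 0.54, unadjusted p = 0.00144 and adjusted p = 0.984 in edgeR). Over the alternative fits the adjusted p ran from 0.00165 (edgeR without the filter on low counts) to 0.9999 (edgeR without M-Δx3,4 replicate 3). Leaving out 1 library moved the log2 fold change to between -3.02 (M-Δx3,4 replicate 1) and -1.69 (control replicate 1). Reads from 3′ ends lie outside the deleted exons, so this level is no direct check of the deletion. The libraries held 5852374 to 6666525 summed counts in control and 6627536 to 9008878 in M-Δx3,4, so the M-Δx3,4 libraries were on the whole deeper. Transcripts of the same gene can share reads, so these sums hold some reads more than once. Over 1 transcript per gene the 6 libraries held 2503213 to 3846120 counts. Pearson correlations of log2 counts across genes were 0.764 to 0.952 between libraries of the same group and 0.808 to 0.971 between libraries of different groups. All 8 macrophage markers were tested, and their summed level was 6452 to 7034 normalized counts in control and 5413 to 7072 in M-Δx3,4. Of them only Lyz2, the lysozyme gene from which Cre is driven, passed the test, with a log2 fold change of -0.91. Among markers of other cells, the 5 B cell genes summed to 251.1-281.9 in control and 98.1-120.3 in M-Δx3,4, with Igkc the largest part in every library, while Ms4a1 stayed at or under 3.07 in every library. The 5 T cell genes summed to 45.2-55.8 and 25.4-42.7, with Cd3e and Cd3g at 0 counts throughout. The 5 neutrophil genes summed to 167.6-527.7 and 321.0-443.8, the 5 dendritic cell genes to 3.48-7.15 and 0-7.77, and the 5 fibroblast genes to 2.32-48.8 and 1.94-33.3. Of the fibroblast genes, Col3a1 passed the test as lower, with 13.9, 6.13 and 0 normalized counts in control and 0 in every M-Δx3,4 library.

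To place the genes against each other, the TPM values deposited by the authors were used, in which counts are scaled by region length (790 to 2867 bases for the members with a single region). Since 3′-end reads gather near the end of an RNA, this division lowers genes with long 3′ UTRs. Socs1 had the highest mean over the 6 libraries (23.8 TPM), followed by Jak1 (19.9), Tyk2 (12.7), Socs3 (8.87), Jak2 (3.02), Ifngr1 (2.35), Ifngr2 (1.61), Ifnar2 (1.301), Cish (0.258) and Ifnar1 (0.17). Between neighbours in this order, the ranges over libraries were apart only for Socs3 (5.39 to 11.2 TPM) over Jak2 (1.85 to 5.16), and for Ifnar2 (1.204 to 1.643) over Cish (0.0557 to 0.565). Socs1 exceeded Jak1, and Jak1 exceeded Tyk2, in 5 of 6 libraries each, with overlapping ranges, and Cish exceeded Ifnar1 in 3 of 6. The order also depends on the region used for each gene. A region of 249 bases at the end of Tyk2 (ENSMUST00000213717) had a mean of 59.6 TPM, above Socs1. Another Ifnar2 transcript, ENSMUST00000134491, had 5.51 TPM. In normalized counts Ifngr2 (means 73.8 in control and 53.4 in M-Δx3,4) exceeded Ifngr1 (18.9 and 32.2), the reverse of their order in TPM.

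**Figure D1:**
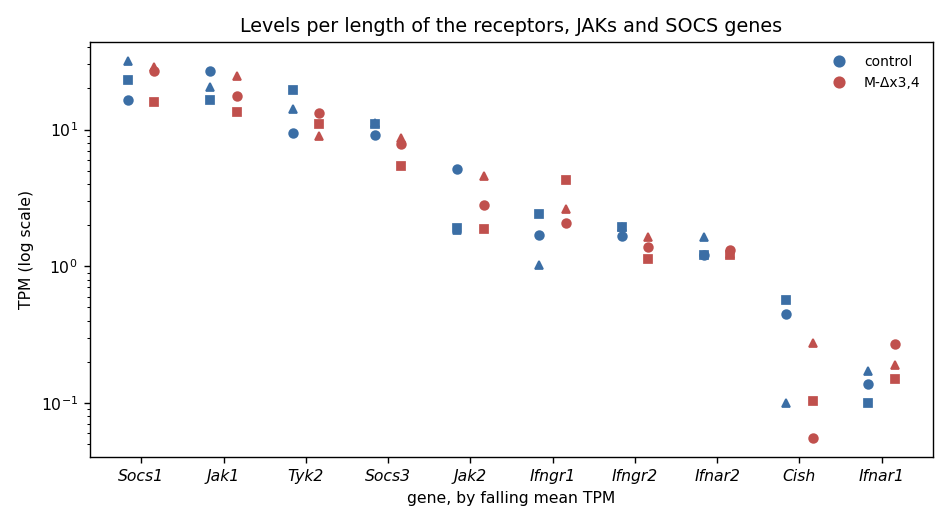
TPM of each gene (log axis) in the 3 control (blue) and 3 M-Δx3,4 (red) libraries, with circles, squares and triangles for replicates 1, 2 and 3. The genes fall from Socs1 (mean 23.8 TPM) to Ifnar1 (0.17), with gaps between Socs3 and Jak2 and between Ifnar2 and Cish.

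None of the 10 genes had an unadjusted p under 0.05 for M-Δx3,4 against control, while 3.98% of the 11875 genes tested did (edgeR's quasi-likelihood test). Their adjusted p-values lay between 0.984 and 0.998. The fitted change was negative for 7 genes and positive for 3, with a median of -0.18 on the log2 scale beside -0.01 over all genes tested. The groups did not overlap for 1 of the 10, Socs3, while 8.44% of all genes had groups that did not overlap and 4.26% had every M-Δx3,4 library below every control library. The test leaves room for changes of some size: the 95% intervals reached 0.70 to either side of the fitted log2 value for Jak1, the most precisely measured, and 2.02 for Cish, the least.

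Of the chains for type I interferon, Ifnar2 was steadier than Ifnar1. Ifnar2 (ENSMUST00000023693, chr16:91404415-91405838, plus strand), the chain that binds interferon tightly, had 22.1, 24.5 and 33.6 normalized counts in control and 24.5, 24.3 and 23.7 in M-Δx3,4 libraries. The M-Δx3,4 values all lay within the control range, and the log2 fold change was -0.15 (SE 0.42, 95% interval -1.05 to 0.75). Ifnar1, the partner chain that brings Tyk2, was read from 4, 4 and 6 counts in control and 10, 6 and 9 in M-Δx3,4 (ENSMUST00000123196), and its regions span chr16:91499404-91507686 on the plus strand. Normalized these were 4.65, 4.09 and 6.96 against 9.78, 5.83 and 6.88, and the ranges overlapped. The log2 fold change was 0.51 (SE 0.73, 95% interval -1.05 to 2.07), and for ENSMUST00000023689, whose region shares nearly all of these reads, it was 0.61. With so few counts, even a doubling of Ifnar1 could not be told from no change.

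The chains of the interferon-γ receptor had fitted values of opposite sign, and neither passed the test. Ifngr1 (ENSMUST00000020188, chr10:19609689-19610478, plus strand), the ligand-binding chain that carries Jak1, had 17.4, 27.6 and 11.6 normalized counts in control and 21.5, 47.6 and 27.5 in M-Δx3,4, a log2 fold change of 0.76 (SE 0.49, 95% interval -0.28 to 1.79). M-Δx3,4 replicate 2 was the highest of the 6, and replicate 1 lay below control replicate 2. Ifngr2 (ENSMUST00000023687, chr16:91563006-91565872, plus strand), the chain that brings Jak2, had 61.6, 79.7 and 80.1 in control and 51.8, 45.6 and 62.7 in M-Δx3,4. Only M-Δx3,4 replicate 3 reached into the control range, just over control replicate 1, and the log2 fold change was -0.46 (SE 0.37, 95% interval -1.25 to 0.33). In edgeR the unadjusted p was 0.140 for Ifngr1 and 0.230 for Ifngr2, and the exact two-sided permutation test gave p = 0.3 and p = 0.2, where 3 cultures per group cannot give less than 0.1.

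Of the kinases, Jak1, which serves every interferon receptor, was counted over chr4:101152118-101153494 on the minus strand (ENSMUST00000102781). It had 478.9, 321.8 and 409.5 normalized counts in control and 322.8, 261.2 and 452.4 in M-Δx3,4, so that 2 of the 3 M-Δx3,4 libraries were within the control range. The log2 fold change was -0.22 (SE 0.33, 95% interval -0.93 to 0.48). The counted region overlaps that of the convergent gene Raver2 by 502 bases. The strand setting of the counting is not given in the sources used here. Of 1114 regions with at least 50 counts that lie inside a region on the opposite strand, 71.5% had more counts than the region around them, beside 4.36% of 16310 regions that lie inside a region on their own strand.

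Jak2 (ENSMUST00000025705, chr19:29311849-29313329, plus strand), the partner of Jak1 at the interferon-γ receptor, had 98.8, 39.8 and 39.4 normalized counts in control and 54.8, 38.8 and 89.4 in M-Δx3,4. One library of each group stood well above the others, and the means were 59.4 ± 34.1 and 61.0 ± 25.9 (SD, n = 3 each). The log2 fold change of 0.05 (SE 0.47) changed sign when control replicate 2, control replicate 3 or M-Δx3,4 replicate 3 was left out, over a range of -0.34 to 0.63. Tyk2 (ENSMUST00000001036, chr9:21103820-21105048, minus strand), the kinase of the type I receptor, had 151.1, 343.3 and 254.1 in control and 214.2, 192.3 and 145.2 in M-Δx3,4. Control replicate 1 lay with the M-Δx3,4 libraries and the other controls lay above them. The log2 fold change was -0.44 (SE 0.36, 95% interval -1.22 to 0.34) with all libraries, and -0.14 without control replicate 2, the highest.

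Among the inhibitors, Socs3 had the smallest p-value of the 10 genes. Socs3 (ENSMUST00000054002, chr11:117965830-117967552, minus strand), which restrains signals through gp130 receptors such as that of interleukin 6, had 204.6, 270.8 and 279.6 normalized counts in control and 178.0, 132.1 and 197.2 in M-Δx3,4. Every M-Δx3,4 library was below every control library. The means were 251.6 ± 41.0 and 169.1 ± 33.5 (SD, n = 3 each) and the log2 fold change was -0.57 (SE 0.33, 95% interval -1.28 to 0.13), with p = 0.104 and an adjusted p of 0.984 in edgeR and p = 0.1 in the exact two-sided permutation test, the least this design allows. Without control replicate 1 the p-value fell under the threshold for Socs3 and for Tyk2, each with a log2 fold change of -0.70. In that fit 16.0% of all genes tested had an unadjusted p under 0.05, so both stood among many.

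Socs1 (ENSMUST00000038099, chr16:10781994-10784232, minus strand), the inhibitor of Jak1, Jak2 and Tyk2 in the interferon response, had 480.0, 738.7 and 1028 normalized counts in control and 796.2, 503.0 and 855.1 in M-Δx3,4. All M-Δx3,4 values lay inside the control range, which spanned 2.14-fold. The means were 748.9 ± 274.1 and 718.1 ± 188.6 (SD, n = 3 each), and the log2 fold change was -0.06 (SE 0.35, 95% interval -0.81 to 0.69). Without control replicate 3 it was 0.25 and without M-Δx3,4 replicate 2 it was 0.14, so it has no settled sign. Cish (ENSMUST00000085102, chr9:107300901-107302236, plus strand), a STAT5-induced inhibitor, was near the limit of counting with 7, 11 and 2 counts in control and 1, 2 and 7 in M-Δx3,4. Normalized, these were 8.14, 11.2 and 2.32 against 0.98, 1.94 and 5.35, with overlapping groups and a log2 fold change of -1.32 (SE 0.95, 95% interval -3.33 to 0.70). It was -2.22 without M-Δx3,4 replicate 3 and -0.86 without control replicate 2, the highest library of each group. The gene with the nonamer was thus the one with the largest standard error of the 10.

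**Figure D2:**
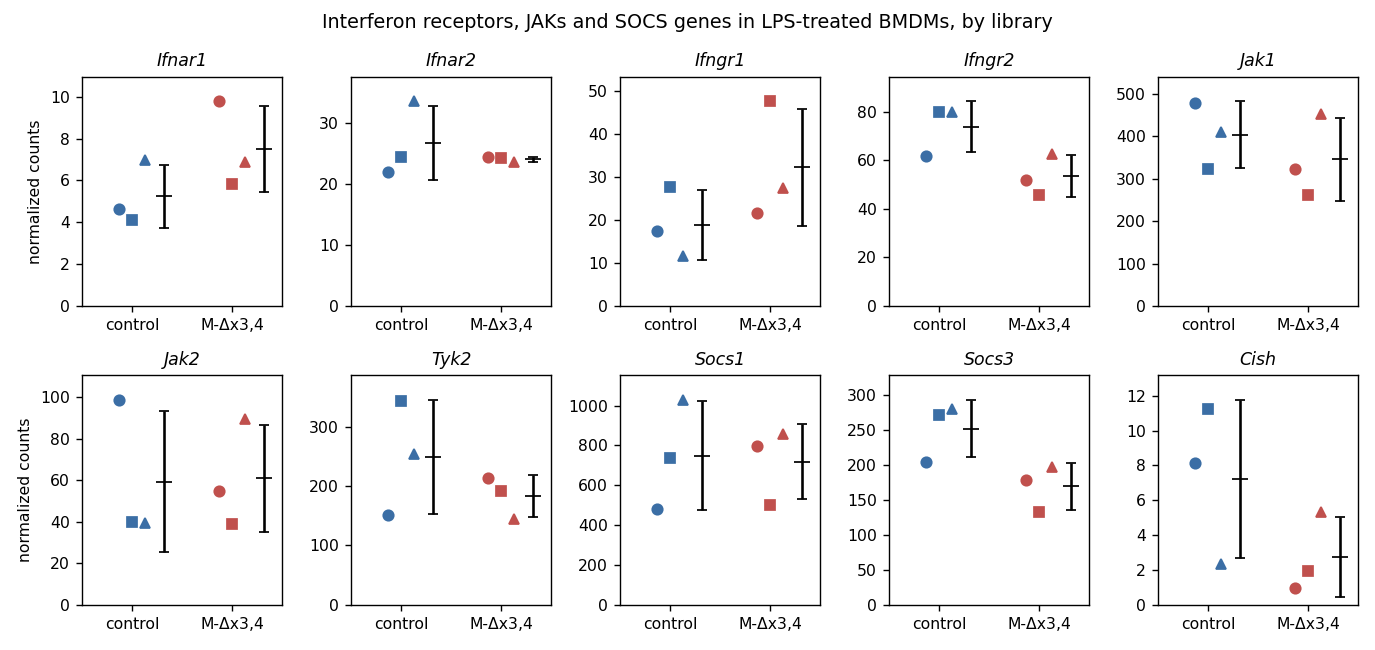
Normalized counts of each gene by library (y axes start at 0), with circles, squares and triangles for replicates 1, 2 and 3 of control (blue) and M-Δx3,4 (red) and bars for the mean ± SD. Socs3 is the only panel in which the groups are apart, at 204.6 to 279.6 against 132.1 to 197.2.

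**Figure D3:**
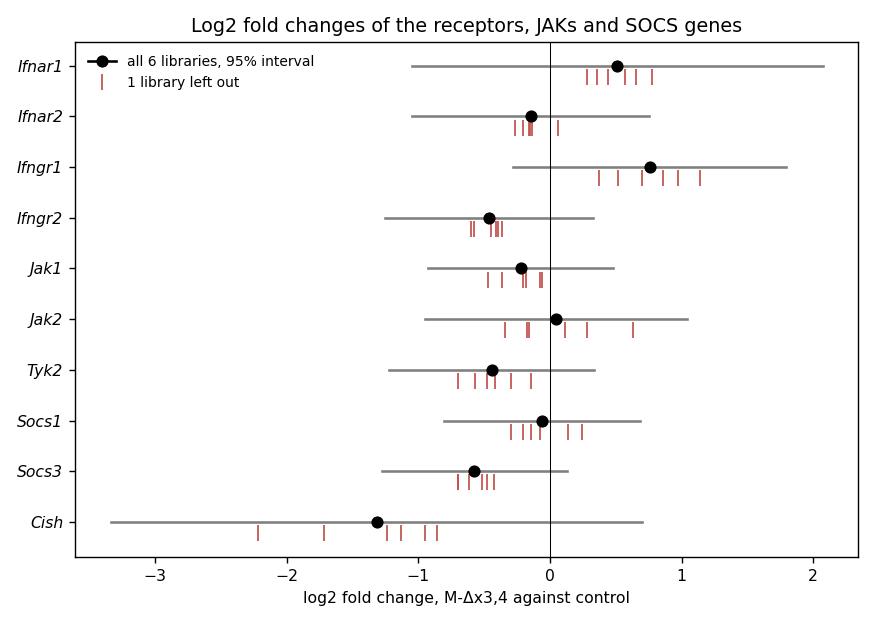
Log2 fold change of M-Δx3,4 against control for each gene (point) with its 95% interval (line), and the values when each library is left out (red ticks). All intervals include 0, and the ticks of Ifnar2, Jak2 and Socs1 lie on both sides of it.

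The spread among libraries was set beside that of other genes, without a test. For the 8 members with a mean of 20 to 1000 normalized counts, the highest control library was a median of 1.83 times the lowest, beside 2.01 times over 6227 other genes in that range. Among M-Δx3,4 libraries the medians were 1.60 and 1.58 times. The median standard error of the log2 fold change was 0.37 for these members and 0.41 for the other genes.

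The 5 genes most like Socs3 across the 6 libraries, out of 4656 with a mean of at least 50 normalized counts, were Tmem9b (Pearson r = 0.964 on log2 counts), Fbxo6 (0.964), Elk1 (0.963), Irf2bp1 (0.961) and Akr1b3 (0.960). All 6 libraries share depth and scaling between these genes, and the list is a description only. Elk1, an ETS-family transcription factor, had 110.4, 188.0 and 222.8 normalized counts in control and 75.3, 64.1 and 122.3 in M-Δx3,4, and like Socs3 it was lowest in M-Δx3,4 replicate 2 and highest in control replicate 3.

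Besides the transcripts above, the 10 genes had 13 others with a mean of at least 5 normalized counts. Of these, 6 repeated the counts of the transcript already described and 7 held other counts. A single one of the 7, in Jak1, had an unadjusted p under 0.05, where 4.13% of all transcripts tested did. For Tyk2 the other region, ENSMUST00000213717, held 92.3% to 95.9% of the counts of the gene within 249 bases, at and past the annotated end, and its log2 fold change was the same at -0.44.

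The region of Jak1 that passed belongs to the short transcript ENSMUST00000136167 and lies at chr4:101179342-101179590 on the minus strand. It covers 136 bases of exon 7 of the 25 exons of ENSMUST00000102781, with the rest in the intron that follows, far upstream of the 3′ UTR. Control replicates 1 to 3 gave 0, 0 and 1 counts, and M-Δx3,4 replicates 1 to 3 gave 1, 12 and 25. With each control library set to an assumed floor of 3 counts, the M-Δx3,4 mean was 3.16 times that of control. This value rests on replicates 2 and 3, since replicate 1 was at the level of control replicate 3 and the groups overlapped. The unadjusted p was 0.00415 and the adjusted p 0.984 in edgeR's quasi-likelihood test, and without M-Δx3,4 replicate 3 the p was 0.065. The exact two-sided permutation test gave p = 0.2. Beside the 330, 269 and 592 counts at the 3′ UTR of Jak1 in the same libraries, these reads were few.

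Ifnar2 and Jak2 have more than 1 counted 3′ end, and the share at the distal end was compared. For Ifnar2, the proximal end (ENSMUST00000117836, chr16:91393952-91394289) follows an annotated coding sequence that stops before the last exons of the full-length chain, and soluble receptor forms of this kind are known. The distal share was 51.4%, 66.7% and 90.6% in control and 59.5%, 67.6% and 70.5% in M-Δx3,4 libraries, from 32 to 44 counts each. A further Ifnar2 transcript, ENSMUST00000134491, had 26, 17 and 5 counts in control and 23, 16 and 25 in M-Δx3,4. It did not enter the share, so the share depends on the choice of these 2 ends. In control replicate 3, with 3 counts at the proximal end, the 95% Wilson interval was 75.8% to 96.8%, and in control replicate 1 it was 35.9% to 66.6%. Those intervals, of the highest and the lowest control, do not meet. The group means of 69.6% ± 19.8 and 65.8% ± 5.66 (SD, n = 3 each) did not differ beyond their spread (exact two-sided permutation test, p = 0.9). The intervals cover counting error alone and treat reads as independent molecules. Reads without molecular identifiers are not, so the intervals may be too narrow to set these controls apart.

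For Jak2, the proximal end (ENSMUST00000238009) lies inside the same 3′ UTR, and the distal part begins past position 29312589 of chromosome 19. The distal share was 71.8%, 56.4% and 64.7% in control and 50%, 67.5% and 65.0% in M-Δx3,4, from 34 to 117 counts. The means were 64.3% ± 7.69 and 60.8% ± 9.46 (SD, n = 3 each), a difference within the spread (exact two-sided permutation test, p = 0.7). M-Δx3,4 replicate 1 was the lowest and control replicate 1 the highest, and the other libraries lay between.

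**Figure D4:**
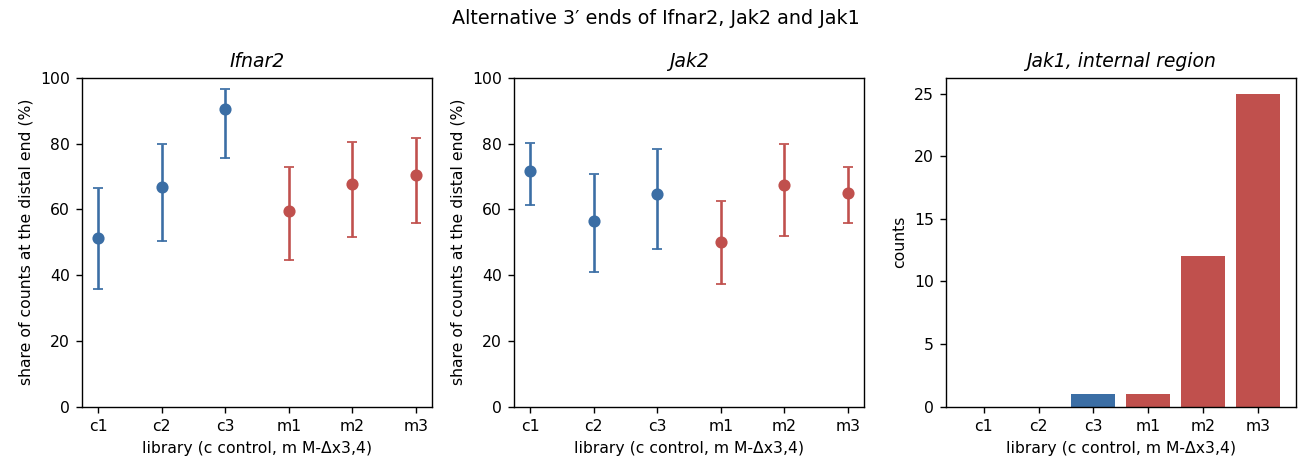
Left and middle, share of the counts of Ifnar2 and Jak2 at the distal 3′ end in each library, with 95% Wilson intervals. Right, counts at the internal region of Jak1, which reached 12 and 25 in M-Δx3,4 replicates 2 and 3 and at most 1 in the other libraries.

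The wider pathway was taken as 102 genes in 9 lists, 71 of which passed the filter on low counts. An unadjusted p under 0.05 was found for 3 of the 71, 1 higher and 2 lower in M-Δx3,4, which is 4.23% beside 3.98% of all genes. None passed after adjustment (smallest adjusted p 0.984), and the median log2 fold change was -0.10. The groups did not overlap for 8 of the 71, beside 8.44% of all genes tested.

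Jak3, the remaining kinase of the family, which pairs with the common γ chain of lymphoid cytokine receptors, was lower in M-Δx3,4. It had 49.98, 44.95 and 113.7 normalized counts in control and 27.4, 21.4 and 28.3 in M-Δx3,4, with no overlap. The log2 fold change was -1.43 (SE 0.45), with p = 0.0063 and an adjusted p of 0.984 in edgeR and p = 0.1 in the exact permutation test, and it was -0.87 without control replicate 3, the highest library. The summed B cell and T cell markers given above were also lower in all M-Δx3,4 libraries than in all control libraries, and their part in the result was not tested. In bulk cultures, fewer cells of a type and less RNA per cell cannot be told apart.

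Of the ligands, 10 of 25 had any count and 4 were tested, none of which passed. Ifnb1, the interferon-β gene, had 40.7, 21.5 and 34.8 normalized counts in control and 33.3, 38.8 and 44.3 in M-Δx3,4 (log2 fold change 0.27, SE 0.41). Il6 (0.02) and Il10 (-0.12) had fitted values nearer to 0. Interferon-γ (Ifng) was at 0 in 5 libraries and at 2.04 in the other, so its receptor was measured here without its ligand at a countable level.

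The 8 STAT and ISGF3 genes were all tested and none passed, with 7 of the 8 fitted values negative and a median of -0.20. Stat2, a subunit of ISGF3 like Irf9, was the 1 gene of the 8 whose groups did not overlap, beside 8.44% of all genes. It had 218.5, 247.3 and 168.2 normalized counts in control and 164.3, 137.9 and 142.1 in M-Δx3,4 (log2 fold change -0.51, SE 0.33). Irf9 had 545.1, 587.5 and 580.1 against 629.0, 515.6 and 492.1 (-0.07), and Stat3 261.5, 293.2 and 467.5 against 259.2, 348.6 and 394.3 (-0.03).

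No other brake passed. Among 4 of 5 other SOCS genes tested the fitted values ran from -0.88 to 0.57, with Socs7 (0.10), Socs6 (-0.10) and Socs4 (0.57) the most abundant. The SOCS box partners Rnf7 (0.25), Eloc (-0.14) and Elob (-0.43) and all 4 genes of their list were tested without a call. Of 13 further brakes, Usp18, which blocks Ifnar2, had 4058, 5211 and 4442 normalized counts in control and 5052, 3697 and 3975 in M-Δx3,4 (-0.11), and the phosphatases Ptpn1 and Ptpn6 had log2 values of -0.18 and -0.39. In this list the groups did not overlap for 3 of the 13 genes, beside 8.44% of all genes tested. The smallest unadjusted p was 0.0965 in edgeR.

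Of 16 interferon-induced target genes, 15 were tested and 1 passed. Rsad2, which encodes the antiviral protein viperin, had 12770, 8426 and 8310 normalized counts in control and 9002, 17923 and 26179 in M-Δx3,4 (log2 fold change 0.85, SE 0.36). Its p was 0.0328 and its adjusted p 0.984 in edgeR, and the exact permutation test gave p = 0.2. M-Δx3,4 replicates 2 and 3 were above every control, while replicate 1 lay within the controls, and the p rose over the threshold without control replicate 2, M-Δx3,4 replicate 2 or M-Δx3,4 replicate 3, with log2 fold changes of 0.75, 0.84 and 0.45. The other abundant targets, Isg15 (0.33) and Cxcl10 (-0.02), did not pass, and the median of the list was 0.07. Of 8 STAT3 and STAT5 targets, Junb, an AP-1 subunit, was lower, with 3564, 6933 and 11395 against 3871, 4501 and 3400 (-0.90, SE 0.37). Its p was 0.0286 and its adjusted p 0.984 in edgeR, and the exact permutation test gave p = 0.3. Its control libraries spread over more than the difference between groups, and without control replicate 3 its log2 fold change was -0.41. The call was also lost without M-Δx3,4 replicate 1 (-0.89) or replicate 3 (-0.80). Il1rn (-0.20) and Il4ra (-0.21) did not pass, and 7 of the 8 fitted values were negative with a median of -0.28.

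The other receptor chains that signal through JAKs gave no call among 15 tested of 23, with a median of -0.03. Their groups did not overlap for 1 of the 15, beside 8.44% of all genes tested. The most abundant were Il4ra (-0.21), Csf3r (-0.13) and Il21r (0.15). Without control replicate 1, 8 genes of the wider pathway passed (Jak3, Junb, Bcl3 and Pias3 lower, Rsad2, Ifit1, Ifit2 and Ifit3 higher), in the fit in which 16.0% of all genes did. Without M-Δx3,4 replicate 3, Jak3 was the single gene left.

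**Figure D5:**
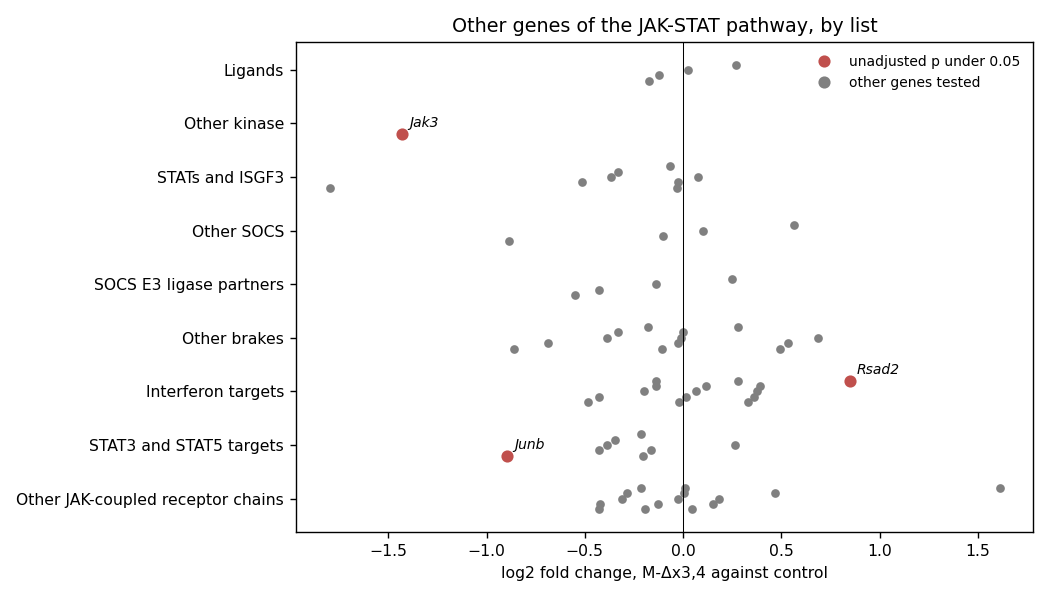
Log2 fold change of M-Δx3,4 against control for each tested gene of the wider pathway, by list, with the 3 genes of unadjusted p under 0.05 in red. Jak3 (-1.43) and Junb (-0.90) lie on the lower side and Rsad2 (0.85) on the higher side.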

How the data were processed

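LPS-treated BMDM cultures (3 control, 3 M-Δx3,4) were sequenced from 3′ ends (QuantSeq FWD, Ion Proton). Per the submitters' processing notes, reads were mapped to mm10 with TopHat2 2.1.1 and, where unmapped, with Bowtie2 2.3.2; the study's methods then used metaseqR2. The authors deposited counts for 177303 3′ UTR regions, without normalization, and a table with TPM, of which the authors' TPM for these samples were used. The other 18 per-sample columns and their fold changes and p-values were not used.

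Here counts of the regions of each transcript were summed (142567 transcripts, 52013 with a count), scaled by DESeq2's median of ratios in edgeR 4.0.16 (R 4.3.3), and kept where a library exceeded the median normalized count, 4.89. The groups were tested in edgeR (quasi-likelihood), with Benjamini-Hochberg adjustment over all transcripts. A gene was called at an unadjusted p under 0.05, and a transcript, for counts over the series, also at a log2 fold change beyond 1 either way. Single values also had exact permutation tests. Alternatives used TMM, library totals, DESeq2 1.42.0, limma-voom 3.58.1, other filters, a replicate block and each library left out. Gene models were GENCODE vM21 (GRCm38), promoters RefSeq's.

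Named genes were the 10 members, Hnrnpd, the 3 most abundant of each wider list and those with an unadjusted p under 0.05. The members and lists were chosen with earlier results of these data known. Some genes of the lists are not reported here by name.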

Additional observations from a re-analysis of the deposited data

How the results depend on the processing

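Over the alternative fits, the log2 fold changes of the 10 genes kept their sign and their side of the p threshold in 131 of 139 cases. The sign turned when libraries were left out one at a time for Ifnar2 (-0.263 to 0.0602), Jak2 (-0.34 to 0.63) and Socs1 (-0.30 to 0.25), and Socs3 and Tyk2 passed the threshold without control replicate 1; the cause was not tested. The number of the 10 genes that passed was 0 in every fit with all libraries and 0 to 2 with a library left out. In the wider pathway it was 3, and 1 to 8 with a library left out. Over the whole series 1071 transcripts passed, against 704 with DESeq2, 1715 without the filter, 471 with filterByExpr, 366 with 1 transcript per gene in the fit, where fewer features were tested, and 710 to 3224 with a library left out. The difference in distal share ran from -12.8 to 6.84 percentage points for Ifnar2 and from -7.42 to 1.94 for Jak2 with a library left out. Whether the replicate numbers pair the cultures could not be decided, with 3 cultures per group. Deviations from the group means correlated at -0.21, 0.54 and -0.31 for replicates 1, 2 and 3, whose best matches were numbers 3, 2 and 1. With the number as a replicate block 685 transcripts passed, none of the 10 genes did, and Jak3, Junb and Rsad2 did. Ifnar1 and Cish did not pass filterByExpr, and p37 was not in the fit of 1 transcript per gene. The use of ENSMUST00000023689 for Ifnar1 and the left-out libraries for the distal shares were added after the data were seen. Counts of 1 to 11 per library limit Cish and Ifnar1.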
